A study of Mus musculus with 16 samples.

Results

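The genes described here are 10 immediate early genes of the AP-1, Egr and Nr4a families in cells of the mouse thoracic aorta: Fos, Fosb, Jun, Junb, Jund, Atf3, Egr1, Nr4a1, Nr4a2 and Nr4a3. They were taken by symbol, and each symbol matched exactly 1 of the 31055 features in the deposited matrices. Single-cell RNA sequencing was performed on 16 aortas, 1 library per mouse, from the aortic root to the left subclavian artery. All mice were 129S6/SvEv males that carried the tamoxifen-inducible Myh11-CreER transgene, which is active in smooth muscle cells and lies on the Y chromosome, and all received tamoxifen from 6 weeks of age, the controls included. Smad3+/+ mice kept both wild-type alleles, and Smad3SmKO mice carried floxed alleles of Smad3, the TGF-beta signal transducer. At 10 weeks after deletion there were 2 Smad3+/+ and 2 Smad3SmKO libraries, all from batch 4 with a 60 min digestion, and only the Smad3+/+ pair was labelled with the Myh11-GFP tracer, a conditional EGFP-L10a allele. The later time, 18 weeks, had 5 Smad3+/+ and 7 Smad3SmKO libraries, with a digestion of 30 min in 7 (those of batches 1, 2 and 3) and of 60 min in 5 (those of batches 5 and 6). The tracer was on the labels of these 5 and of none of the 7.

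Immediate early genes are transcribed within minutes of a stimulus from factors already present in the cell, mainly SRF with its partner Elk1, and CREB, and their mRNAs are short-lived. Their products are transcription factors that set off a later wave of transcription. In dissociated tissue they are also known to respond to the enzymes and the warmth of the digestion itself, so a level measured in a dissociated cell holds both the state of that cell in the vessel and its response to being isolated.

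The sequence before the RefSeq starts of these genes is given first, as a description. No link between it and the levels below was tested. RefSeq promoters (build GRCm38.p6) were given for 9 of the 10 genes, Egr1 being the exception, and the 250 bases before each start were searched on both strands. The core of the element bound by CREB and ATF factors, TGACG, occurred in 7 of the 9 (all but Jun and Jund) and in 17.8% of the 32851 promoters searched in the same window. A TATAAA motif occurred in 2 of the 9 (Fos and Nr4a2) against 12.4% of all. No member held the full element TGACGTCA (1.55% of all), the AP-1 element TGACTCA or its reverse complement TGAGTCA (4.46%), or the CArG box bound by SRF (1.47%), which says only that these letters were not in this window. The RefSeq starts of Fos, Jun and Nr4a2 are those of the annotated genes (GENCODE M21), and those of Fosb, Junb and Nr4a3 lie within 6, 30 and 152 bases of them. The start used for Atf3 lies 34706 bases inside the annotated gene and that of Nr4a1 12577 bases inside, 7 and 0 bases from the start of a shorter annotated transcript. The start used for Jund lies 1210 bases before the annotated gene, so its window describes a stretch further upstream. The 4 promoters shown are those of Fos, the founding AP-1 gene, of Atf3 and Nr4a2, whose change with digestion differed between cell types, and of Nr4a1, which like Nr4a2 and Nr4a3 held 4 TGACG cores. Each line runs 5′ to 3′ towards the RefSeq start used, and capitals mark TGACG or its reverse complement CGTCA, and TATAAA or its reverse complement TTTATA. They lie at chr12:85473640-85473889 (plus strand, Fos), chr1:191183334-191183583 (minus strand, Atf3), chr15:101266596-101266845 (plus strand, Nr4a1) and chr2:57124004-57124253 (minus strand, Nr4a2).
Fos: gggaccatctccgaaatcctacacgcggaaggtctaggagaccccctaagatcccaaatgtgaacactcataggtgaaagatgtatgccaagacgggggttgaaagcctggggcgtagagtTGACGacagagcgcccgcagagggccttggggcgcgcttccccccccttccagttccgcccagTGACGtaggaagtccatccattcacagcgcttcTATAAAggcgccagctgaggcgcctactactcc
Atf3: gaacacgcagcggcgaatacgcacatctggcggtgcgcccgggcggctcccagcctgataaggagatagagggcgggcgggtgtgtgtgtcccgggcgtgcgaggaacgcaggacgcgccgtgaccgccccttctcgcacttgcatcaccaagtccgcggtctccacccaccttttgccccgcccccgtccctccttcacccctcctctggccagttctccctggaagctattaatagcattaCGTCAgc
Nr4a1: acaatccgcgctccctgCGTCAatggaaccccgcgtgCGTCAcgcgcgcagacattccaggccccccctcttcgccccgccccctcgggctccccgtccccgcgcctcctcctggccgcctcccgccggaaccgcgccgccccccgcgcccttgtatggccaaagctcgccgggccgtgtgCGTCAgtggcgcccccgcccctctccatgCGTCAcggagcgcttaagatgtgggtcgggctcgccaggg
Nr4a2: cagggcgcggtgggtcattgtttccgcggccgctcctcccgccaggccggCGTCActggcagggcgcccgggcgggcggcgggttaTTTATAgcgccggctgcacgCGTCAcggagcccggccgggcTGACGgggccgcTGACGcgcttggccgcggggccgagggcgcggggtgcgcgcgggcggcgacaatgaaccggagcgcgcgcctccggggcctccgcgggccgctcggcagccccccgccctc
The 2 TGACG cores of Fos began 129 and 66 bases before the start, with TATAAA at 33. The single core of Atf3 began 7 bases before the start. Those of Nr4a1 began at 233, 213, 69 and 40 bases, and those of Nr4a2 at 200, 144, 123 and 111.

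The depth and the make-up of the libraries bear on every value. The 66349 deposited barcodes gave between 12539539 and 52843031 unique molecular identifiers (UMIs) per library, and 50858 cells (76.7%) passed the limits of the study's methods. Cells were assigned by marker UMIs to VSMCs (8950 cells, 22 to 1706 per library), fibroblasts (36066, 196 to 5505), cells with Pecam1 or Cdh5 (3303, 31 to 469) and leukocytes (3357, 13 to 948), and 2442 cells met more than 1 rule. Levels are given as CPM, the UMIs of a gene scaled to a fixed total for each library and class. The summed level of 7 VSMC markers was 36331 to 73383 CPM in VSMCs, and that of 6 fibroblast markers was 14597 to 26572 CPM in fibroblasts. These sums include Myh11 and Dcn, by which the cells were chosen, so they are no independent check of the labels. The third rule did not select endothelium cleanly. Of its cells 54.9% also met the fibroblast rule, and their fibroblast markers summed to a median of 11392 CPM against 1133 CPM for 6 endothelial markers. They are therefore called Pecam1/Cdh5 cells, and the 1226 of them that met no other rule, with endothelial markers at 2320 to 3682 CPM and fibroblast markers at 116 to 1111 CPM, are reported beside them. The endothelial markers include Pecam1 and Cdh5, and the fibroblast markers include Dcn, so these sums too follow in part from the rules. Heart muscle markers summed to 43.3 to 491 CPM in VSMCs, and neutrophil markers to 2542 to 80292 CPM in leukocytes. Of 59572 distinct barcodes 5157 occurred in more than 1 library, and the 14 of 120 library pairs that shared over 100 all lay within batches 4, 5 and 6. Smad3 tags did not separate the genotypes in VSMCs at 18 weeks (2.86 to 8.71 CPM in Smad3+/+ and 4.48 to 14.0 CPM in Smad3SmKO libraries). At 10 weeks they were slightly higher in the Smad3SmKO libraries (6.16 and 9.58 CPM) than in the Smad3+/+ libraries (5.92 and 5.98 CPM), from 129 and 84 UMIs. The tags come from the 3′ end of transcripts, and the sources used here do not place them in the deleted part of the gene, so they do not check the deletion, and the second genotype is named below as labelled Smad3SmKO. Of 7 libraries labelled with the GFP tracer 2 held no GFP UMI in VSMCs, and of 9 labelled without it 2 held some.

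**Figure D1:**
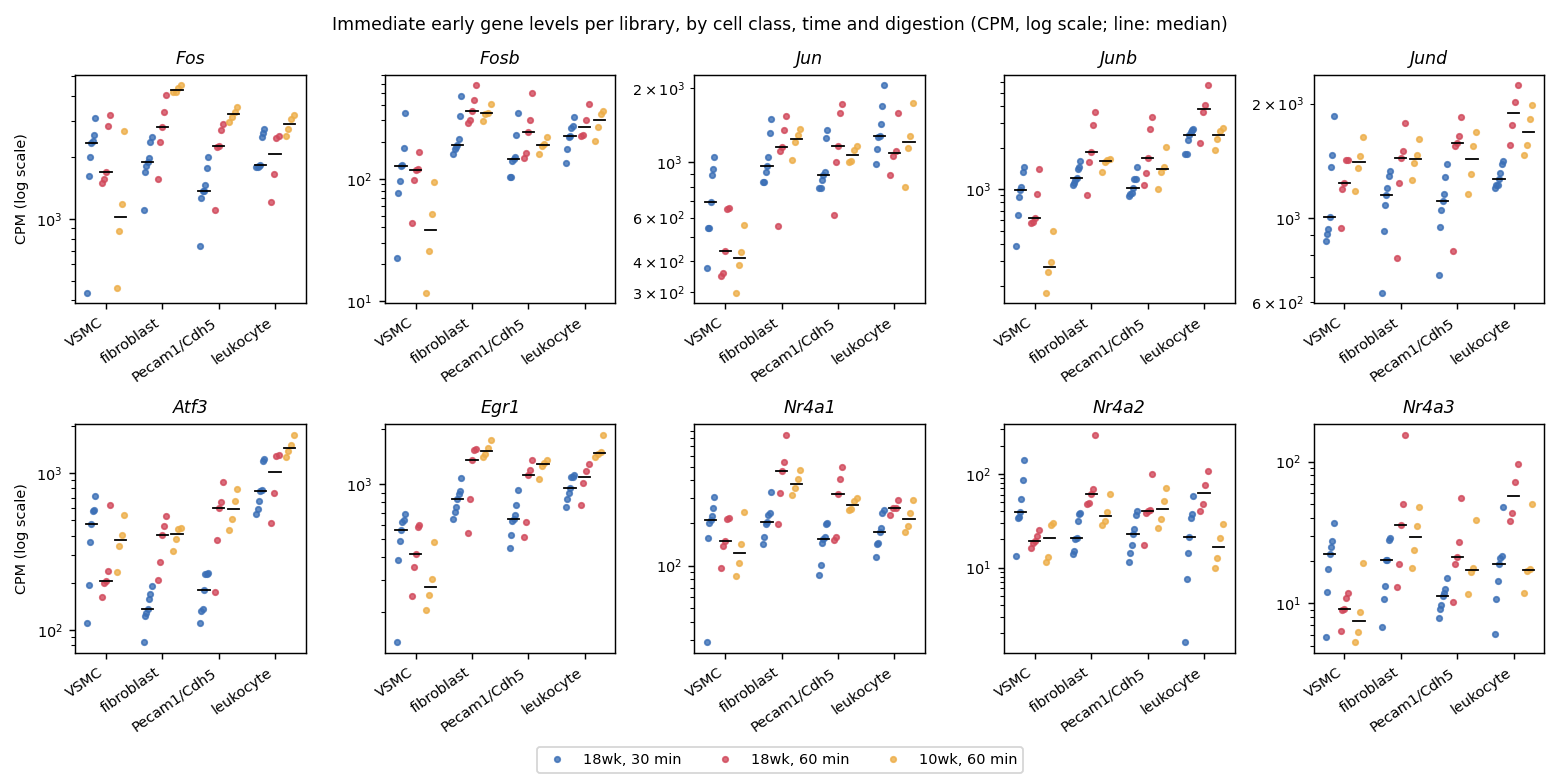
Level of each immediate early gene (CPM, log scale) in every library, by cell class, with colours for the 7 libraries of 18 weeks digested for 30 min, the 5 of 18 weeks digested for 60 min and the 4 of 10 weeks digested for 60 min. Lines are medians. In fibroblasts the 60 min points of Atf3 lie above all 30 min points, and in VSMCs those of Nr4a2 lie low.

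The first comparison was between cell types of the same aorta, which share the mouse, the digestion and the batch. Over all 16 libraries 7 of the 10 genes were lower in VSMCs than in fibroblasts and 1, Atf3, was higher (edgeR's quasi-likelihood test with the library as a block, Benjamini-Hochberg adjusted p under 0.05). Among all 12149 genes tested, 37.7% were lower and 33.0% higher. The median log2 fold change was -0.97 over the 10 genes and -0.04 over all genes. All levels below are CPM, compared for 1 gene at a time.

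Of the Fos family, Fos, the inducible partner of the Jun proteins, had a median of 1849 CPM in VSMCs (437 to 3198), 2122 in Pecam1/Cdh5 cells (739 to 3513), 2439.7 in fibroblasts (1099 to 4506) and 2513 in leukocytes (1215 to 3211). The ranges overlapped widely. Fos was 1.41-fold lower in VSMCs than in fibroblasts (log2 -0.49, SE 0.19, adjusted p = 0.019), a call lost without Smad3+/+ replicate 1 or Smad3SmKO replicate 1 or 2 of 10 weeks or Smad3SmKO replicate 5 of 18 weeks (highest adjusted p 0.071). It did not differ past the threshold between VSMCs and leukocytes (log2 -0.28, 95% interval -0.67 to 0.11) or Pecam1/Cdh5 cells (log2 -0.10, -0.48 to 0.28). Fosb, another Fos protein, showed a larger gap, with a median of 96.7 CPM in VSMCs (11.7 to 346) against 316 in fibroblasts (159.6 to 586). It was 3.34-fold lower in VSMCs than in fibroblasts (log2 -1.74, SE 0.21, adjusted p = 3.7e-10) and 2.85-fold lower than in leukocytes.

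Of the Jun family, Jun and Junb followed Fosb and Jund did not. Jun, which carries the transactivating form of AP-1, had a median of 544 CPM in VSMCs (299 to 1050.2) and 1134 in fibroblasts (555 to 1535), a 2.01-fold difference (log2 -1.01, SE 0.12, adjusted p = 1.6e-10). Junb was 2.19-fold lower in VSMCs than in fibroblasts (log2 -1.13, SE 0.17, adjusted p = 9.9e-08) and 3.75-fold lower than in leukocytes, where its median was 2602 CPM. Jund, which is expressed constitutively rather than as a classical immediate early gene, lay between 871 and 1854 CPM in VSMCs and between 637 and 1779 in fibroblasts. Its difference was small and its interval narrow (log2 0.03, 95% interval -0.10 to 0.15, adjusted p = 0.73), and its only differences past the threshold were lower levels than in leukocytes, with log2 differences of -0.28 in VSMCs, -0.31 in fibroblasts and -0.26 in Pecam1/Cdh5 cells.

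Atf3, a stress-induced member of the ATF/CREB family that pairs with Jun proteins, had the highest level in leukocytes (median 1192 CPM, 483 to 1765). It was 3.97-fold lower in fibroblasts than in leukocytes (log2 -1.99, SE 0.22, adjusted p = 3.2e-11) and 2.74-fold lower in VSMCs (log2 -1.46). VSMCs, at a median of 353 CPM, were 1.45-fold above fibroblasts, at 239.7 CPM (log2 0.53, SE 0.22, adjusted p = 0.027). This call was lost in 5 of 16 fits that left out 1 library (Smad3+/+ replicate 1 or 3 or Smad3SmKO replicate 1, 2 or 4 of 18 weeks, highest adjusted p 0.091) and did not hold in both digestion times, as given below.

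Egr1, a zinc finger factor induced through SRF and Elk1, had a median of 451 CPM in VSMCs (137 to 686) and 1001 in fibroblasts (543 to 1755). It was 2.47-fold lower in VSMCs than in fibroblasts (log2 -1.30, SE 0.16, adjusted p = 3.4e-10), and also lower than in Pecam1/Cdh5 cells (log2 -0.998) and leukocytes (log2 -1.37). Fibroblasts and leukocytes did not differ past the threshold (log2 -0.07, 95% interval -0.38 to 0.25). Egr1 was therefore lower in VSMCs than in each of the other 3 classes as the rules define them. The Pecam1/Cdh5 cells that met no other rule were scaled on their own, and VSMCs together with all classes. Their CPM are therefore given without a ranking, and do not show whether VSMCs lay below these cells too. At 18 weeks the median of the Pecam1/Cdh5 cells that met no other rule was 442 CPM at 30 min (234 to 920) and 1302 CPM at 60 min (503 to 1810). VSMCs read 566 CPM (137 to 686) and 418 CPM (247 to 600).

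The Nr4a genes encode orphan nuclear receptors that need no ligand and whose output follows their expression. Nr4a1 was 1.90-fold lower in VSMCs than in fibroblasts (log2 -0.92, SE 0.17, adjusted p = 5.5e-06), with medians of 179.7 and 320.4 CPM. It was the only member higher in fibroblasts than in leukocytes past the threshold (log2 0.60, SE 0.17, adjusted p = 0.0018). Nr4a3 was 2.57-fold lower in VSMCs than in fibroblasts (log2 -1.36, SE 0.28, adjusted p = 2.6e-05), with medians of 11.4 and 22.1 CPM. Nr4a2 did not differ past the threshold between VSMCs and any of the other classes, and its difference from fibroblasts had a wide interval (log2 -0.46, 95% interval -1.14 to 0.21).

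Against Pecam1/Cdh5 cells 4 of the 10 genes were lower in VSMCs (Fosb, Jun, Junb and Egr1) and none was higher, with 34.2% of all genes lower and 31.1% higher. Against leukocytes 7 were lower in VSMCs (Fosb, Jun, Junb, Jund, Atf3, Egr1 and Nr4a3) and none was higher, with 38.3% and 41.6% of all genes. Fibroblasts exceeded Pecam1/Cdh5 cells in 3 members (Fosb, Nr4a1 and Nr4a3) of the 36.9% of genes called in either direction. Fibroblasts were below leukocytes in Junb, Jund and Atf3 (76.8% of genes called), and Pecam1/Cdh5 cells were below leukocytes in 5 (Junb, Jund, Atf3, Egr1 and Nr4a3; 74.5% called). Pecam1/Cdh5 cells that met no other rule were below fibroblasts in 5 members (Fos, Fosb, Egr1, Nr4a1 and Nr4a3), when 62.0% of genes were called, and below leukocytes in 7 (all but Fos, Jun and Nr4a2), when 67.3% were.

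The difference between VSMCs and fibroblasts was then measured within each digestion time, and it was not the same set of genes. In the 7 libraries digested for 30 min, 4 of the 10 genes were lower in VSMCs (31.9% of 11381 genes tested): Fosb (log2 -0.96), Jun (-0.61), Junb (-0.48) and Egr1 (-0.79). Atf3 (log2 1.48, SE 0.22, adjusted p = 3.3e-06) and Nr4a2 (log2 1.07, SE 0.39, adjusted p = 0.022) were higher in VSMCs (23.1% of genes). In the 9 libraries digested for 60 min, 8 of the 10 genes were lower in VSMCs (34.6% of 12638 genes tested) and none was higher (32.5% of genes). Nr4a2 was then lower in VSMCs (log2 -1.53, SE 0.30, adjusted p = 5.4e-05), as were Nr4a1 (-1.46) and Nr4a3 (-1.97), which at 30 min lay at -0.23 and -0.01. Atf3 lay at -0.29 (adjusted p = 0.14), and Jund near 0 in both. The adjusted p of Atf3 over its 28 alternatives ran from 3.3e-06 to 0.14 and that of Nr4a2 from 5.4e-05 to 0.60. The 60 min libraries include all those of 10 weeks, and the digestion times are different batches.

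**Figure D2:**
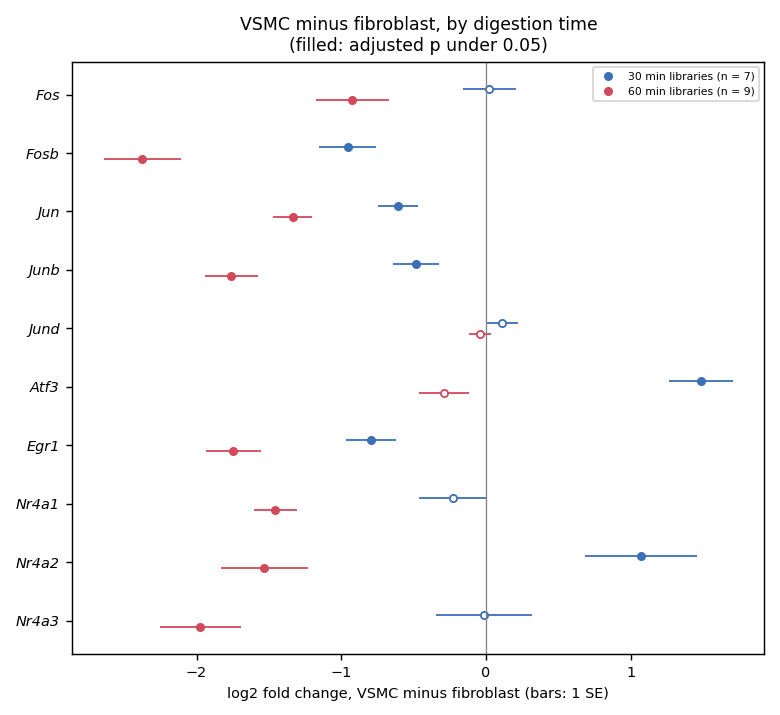
Log2 fold change between VSMCs and fibroblasts (VSMC minus fibroblast, bars 1 SE) for each gene, fitted separately in the 7 libraries digested for 30 min and the 9 digested for 60 min. Filled points have an adjusted p under 0.05. Atf3 moves from 1.48 to -0.29 and Nr4a2 from 1.07 to -1.53, while Jund stays near 0.

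The effect of digestion time was compared directly among the 12 libraries of 18 weeks, 5 at 60 min and 7 at 30 min, with genotype in the fit. In these libraries digestion time, batch (1 to 3 against 5 and 6) and the tracer label went together, so they cannot be told apart. In VSMCs, Nr4a2 alone was called, at a lower level after 60 min, when 3.29% of 11058 genes were called. In fibroblasts all 10 genes had fold changes above 0 (on library totals Jun lay at -0.09 and the other 9 above 0) and Atf3 alone was called, when 1.71% of 15267 genes were called. The median log2 fold change of the 10 genes was -0.33 in VSMCs and 0.73 in fibroblasts, where the median of all genes was 0.00 in each.

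Nr4a2 in VSMCs read 13.3, 33.8, 34.3, 39.2, 53.3, 85.7 and 141 CPM in the 30 min libraries. It read 16.1, 18.5, 19.2, 21.7 and 25.5 CPM in the 60 min libraries. All 60 min values lay under 6 of the 7 values at 30 min, and only the library with 13.3 CPM overlapped them. The difference was 2.74-fold (log2 -1.46, SE 0.38, adjusted p = 0.045 by edgeR). It rested on 13 to 117 UMIs per library at 30 min, and only 4 of 12 fits that left out 1 library kept the call. It was lost without Smad3+/+ replicate 3, 4 or 5 or Smad3SmKO replicate 1, 2, 4, 5 or 7 (adjusted p from 0.053 to 0.15), and without Smad3+/+ replicate 3, the library at 141 CPM, the fold change was -1.05 (adjusted p = 0.079). Nr4a3 had the second largest difference (log2 -1.02, SE 0.35, adjusted p = 0.12), followed by Atf3 (log2 -0.69, adjusted p = 0.41) and Jun (-0.61, adjusted p = 0.20). Fos (0.05), Jund (-0.00), Egr1 (-0.20), Junb (-0.25), Nr4a1 (-0.29) and Fosb (-0.37) had intervals that included 0.

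Atf3 in fibroblasts lay between 83.5 and 189.6 CPM in the 30 min libraries, with a median of 137. The 60 min libraries read 207.7, 272, 406, 463 and 532 CPM, so that the groups did not overlap. Of the 15267 genes tested in fibroblasts, 1.28% were higher after 60 min without overlap and 1.76% were lower. The difference was 2.66-fold (log2 1.41, SE 0.25, adjusted p = 0.019). The call held in 9 of 12 fits that left out 1 library, and was lost without Smad3+/+ replicate 2 (adjusted p = 0.052), replicate 3 (0.051) or replicate 5 (0.071) of 18 weeks. Over its 27 alternatives the adjusted p ran from 9.9e-06 to 0.38. Counted by cells, each thinned to 2000 UMIs, a median of 17.9% of fibroblasts held an Atf3 UMI at 30 min and 34.8% at 60 min (39.1% and 55.2% before thinning, when depth differs). No kept cell was left out by the thinning. There was no class known to lack Atf3 to serve as a background for free RNA, whose part was not tested.

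Nr4a2 in fibroblasts lay between 13.9 and 38.4 CPM at 30 min and read 48.2, 49.0, 61.1, 68.4 and 261 CPM at 60 min. These groups did not overlap either, but the difference missed the threshold (log2 1.87, SE 0.47, adjusted p = 0.062). Atf3 and Nr4a2 were the 2 members without overlap in fibroblasts, beside 1.28% of all genes higher after 60 min. It was 1.14 on the log2 scale without the library at 261 CPM, Smad3+/+ replicate 4. Nr4a1 (log2 1.13, adjusted p = 0.077) and Junb (0.76, adjusted p = 0.16) also missed it. Nr4a1 read between 142 and 331 CPM at 30 min and between 198 and 844 at 60 min, so the groups overlapped. The other fold changes in fibroblasts were 0.57 for Fos, 0.70 for Fosb, 0.11 for Jun, 0.33 for Jund, 0.48 for Egr1 and 1.35 for Nr4a3. Batch 5, whose 2 libraries were both labelled Smad3SmKO, weighed on these counts. Without it 5 of the 10 genes were called in fibroblasts, all higher after 60 min (Junb, Atf3, Egr1, Nr4a1 and Nr4a2), where 3.19% of genes were called, and none in VSMCs (unadjusted p under 0.05 in 1), where 1.34% were. In the 5 Smad3+/+ libraries alone, 5 genes were called in fibroblasts (Fosb, Atf3, Nr4a1, Nr4a2 and Nr4a3), all higher after 60 min, where 2.18% of genes were called, and none in VSMCs, where 2.59% were (unadjusted p under 0.05 in 3). In the 7 Smad3SmKO libraries alone none was called in either class (unadjusted p under 0.05 in 2 in fibroblasts). Over all genes only 17 were called there in VSMCs and 10 in fibroblasts, against 364 and 261 in the fit of both genotypes. With batch as a random block in limma-voom no member was called in VSMCs or fibroblasts, when 2.99% and 0.328% of genes were, and Atf3 in fibroblasts had a fold change of 1.28 (adjusted p = 0.088).

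The difference between the cell types in their change with digestion was itself tested. All 10 genes had a value below 0, that is, a smaller rise or a larger fall in VSMCs than in fibroblasts, and 2 passed the threshold, when 1.68% of 13250 genes did. Of all genes tested 51.2% lay above 0. The members varied together over libraries, as given below, so their signs are not 10 separate observations. For Atf3 the difference was -1.97 on the log2 scale (SE 0.33, adjusted p = 0.0082) and for Nr4a2 it was -3.05 (SE 0.60, adjusted p = 0.020). Both calls were kept in all 12 fits that left out 1 library. These fits do not test dependence on batch, since each digestion time came from its own batches. The difference was not fitted with batch as a random block or with a whole batch left out. The calls of Atf3 and Nr4a2 were lost when a sum had to hold at least 50 cells, which removed VSMC sums of 30 min libraries (Atf3 adjusted p = 0.062, Nr4a2 adjusted p = 0.088). The adjusted p ran down to 1.1e-05 and 0.00033 over the 22 alternatives of each. Nr4a3 (-2.15, adjusted p = 0.074), Junb (-0.88, adjusted p = 0.091), Nr4a1 (-1.26, adjusted p = 0.14) and Fosb (-1.01, adjusted p = 0.21) did not pass.

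**Figure D3:**
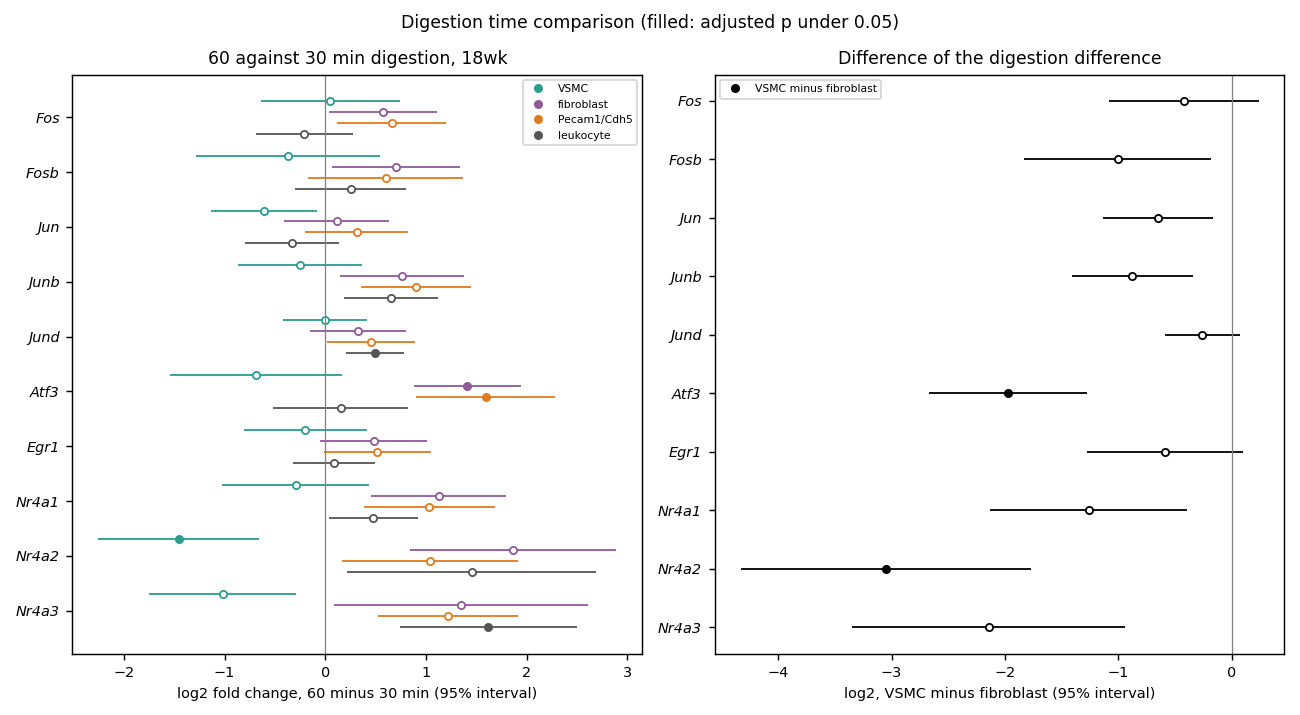
Left, log2 fold change of each gene after 60 against 30 min of digestion at 18 weeks in 4 cell classes, with 95% intervals; right, the difference of that change between VSMCs and fibroblasts. Filled points have an adjusted p under 0.05. In the right panel all 10 points lie below 0, with Atf3 at -1.97 and Nr4a2 at -3.05 filled.

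Several properties of the cells moved with digestion time beside these values, and their part in the differences was not tested. The number of VSMCs per library was 22 to 259 at 30 min and 319 to 1381 at 60 min. VSMC markers in VSMCs summed to 36331 to 58040 CPM at 30 min and 56826 to 73383 CPM at 60 min. In fibroblasts the same 7 markers summed to 519 to 3313 CPM at 30 min and 1061 to 11599 CPM at 60 min, and none of them was at 0. Fibroblast markers in VSMCs summed to 563 to 920 CPM and 749.7 to 1518 CPM. Mitochondrial genes took 3.42% to 6.92% of VSMC UMIs at 30 min (median 4.34%) and 1.94% to 4.80% at 60 min (median 3.28%). In fibroblasts they took 2.06% to 3.50% at 30 min, and at 60 min 1.23% to 1.77% in 4 libraries and 3.65% in the other.

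In Pecam1/Cdh5 cells all 10 genes had fold changes above 0 and Atf3 was called (log2 1.59, SE 0.32, adjusted p = 0.019; 0.050 without Smad3+/+ replicate 3 and 0.051 without replicate 4), when 2.85% of 11614 genes were called. Without batch 5 there were 5 called (Junb, Atf3, Egr1, Nr4a1 and Nr4a3; 2.59% of genes), in Smad3+/+ libraries alone 6 (2.18% of genes), and with the random block none (0.654% of genes). Restricted to cells that met no other rule (7 libraries at 30 min and 4 at 60 min), 6 of the 9 members tested were called, all higher after 60 min, when 1.87% of 8249 genes were called. Atf3 lay at 116 to 379 CPM at 30 min and at 362 to 1394 CPM at 60 min, with 1 library on each side in the overlap (log2 2.17, SE 0.35, adjusted p = 0.0072). Junb rose from 954 to 1554 CPM to 2108 to 4271 CPM without overlap (log2 1.498, SE 0.21, adjusted p = 0.0031), and the share of all genes without overlap was not counted in these cells. Fos (log2 1.37), Jun (1.03), Jund (1.01) and Nr4a1 (1.97) were also called, and Fosb, Egr1 and Nr4a2 were not. Fos (841 to 1743 against 1811 to 3956 CPM), Jun (867 to 1221 against 1625 to 2832) and Jund (639 to 1262 against 1448 to 2607) did not overlap either. The 60 min side lacked Smad3SmKO replicate 7, which had 3 such cells, and all its libraries but Smad3SmKO replicate 5 came from batch 6. Nr4a3, with 0 to 6.83 CPM at 30 min, did not pass the filter on low counts. In leukocytes 2 genes were called, when 6.16% of 10354 genes were called. Jund lay at 1197 to 1413 CPM at 30 min and at 1560.0 to 2241 CPM at 60 min, without overlap (log2 0.50, SE 0.13, adjusted p = 0.048). It was the 1 member without overlap in leukocytes, where 3.82% of all genes were higher after 60 min without overlap. Nr4a3 lay at 6.1 to 47.6 CPM and at 37.8 to 96.4 CPM (log2 1.62, SE 0.41, adjusted p = 0.036). Of 11 fits that left out 1 library, 1 kept the call of Jund and 4 that of Nr4a3 (highest adjusted p 0.13 and 0.14), and with the random block Nr4a3 alone was called (3.86% of genes). Atf3, called in fibroblasts and Pecam1/Cdh5 cells, had a leukocyte fold change of 0.15 (95% interval -0.52 to 0.83).

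Related genes were counted by lists. Of 20 other AP-1 and partner bZIP genes, 17 were tested for digestion in VSMCs and none was called (unadjusted p under 0.05 in 4). Their lowest p-values were those of Jdp2 (log2 0.67, adjusted p = 0.13), Mafg (-0.46) and Ddit3 (-0.57). Of 43 other immediate early genes, 40 were tested in VSMCs and 3 fell, with a list median of -0.33: Klf4 (log2 -1.37, adjusted p = 0.021), a repressor of the contractile programme, Btg2 (log2 -1.05, adjusted p = 0.022), an antiproliferative gene, and Klf2 (log2 -1.24, adjusted p = 0.045). In fibroblasts 42 were tested and 11 rose with none falling, at a list median of 0.67, where 1.71% of all genes were called in either direction (3.29% in VSMCs). Of 15 heat shock genes 1 fell in VSMCs, Hspa1a (log2 -1.65, adjusted p = 0.034), with Hspa1b at -1.46 and Dnaja1 at -0.81, and none was called in fibroblasts (unadjusted p under 0.05 in 2). Their fold changes were below 0 for 14 in VSMCs and above 0 for all 15 in fibroblasts. Of 25 upstream kinases and factors tested in VSMCs none was called (unadjusted p under 0.05 in 1), with Elk1 at 0.57, Mkl2 at -0.42 and Mef2d at -0.33. The change with digestion in VSMCs minus that in fibroblasts lay below 0 in 39 of 42 other immediate early genes (11 called, median -0.96). It lay below 0 in 14 of 15 heat shock genes (3 called, median -0.60), 15 of 19 other AP-1 genes (2 called) and 16 of 25 upstream genes (0 called, unadjusted p under 0.05 in 9). The median of the members was -0.94, and 1.68% of all genes were called. Between VSMCs and fibroblasts, 15 of 19 other AP-1 genes were lower in VSMCs and 1 higher, 32 of 41 other immediate early genes were lower and 5 higher, 7 of 15 heat shock genes were lower and 6 higher, and 8 of 26 upstream genes were lower and 10 higher. Of all genes tested 37.7% were lower and 33.0% higher, so the last 2 lists lay near the background.

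The genotypes were compared within cell class with batch in the fit. None of the 10 genes was called in any class at either time (edgeR, adjusted p from 0.999 to 1), and DESeq2 called none either. In VSMCs at 10 weeks 0 of 11852 genes were called at all (0%), and 220 had an unadjusted p under 0.05. At 18 weeks 5 genes were called (0.0422%) and 582 had an unadjusted p under 0.05. In fibroblasts no gene was called at 10 or at 18 weeks (0% of 14626, unadjusted p under 0.05 in 119 and 363), nor in Pecam1/Cdh5 cells (0% of 11683, 427 and 362) or leukocytes (0% of 9656, 306 and 160).

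At 10 weeks 9 of the 10 VSMC fold changes were below 0, with a median of -0.82 against -0.01 for all genes. Fos read 1185 and 2692 CPM in the Smad3+/+ libraries and 460.5 and 868 CPM in those labelled Smad3SmKO. The pairs did not overlap, and the fold change was -1.53 on the log2 scale (95% interval -2.82 to -0.25, adjusted p = 1 by edgeR). Fosb read 51.1 and 93.7 CPM in Smad3+/+ and 11.7 and 25.8 CPM in Smad3SmKO libraries (log2 -1.96, 95% interval -3.23 to -0.68, adjusted p = 1). Nr4a2 read 28.7 and 29.9 CPM against 11.4 and 12.9 CPM (log2 -1.26, 95% interval -1.93 to -0.59, adjusted p = 1). Egr1 read 303 and 483 CPM against 207 and 248, Nr4a1 143 and 238 against 84.2 and 104, Junb 297 and 498 against 178 and 252, and Jun 438 and 559 against 299 and 386. In these 4 genes too the lowest Smad3+/+ library lay above the highest Smad3SmKO library, with fold changes of -0.78, -1.005, -0.87 and -0.53. So 7 of the 10 members were lower without overlap of the 2 and 2 libraries, as were 17.1% of the 11852 genes tested (a further 13.0% were higher without overlap), and 0% of these genes were called. Atf3 (-0.05), Jund (0.01) and Nr4a3 (-0.62) overlapped. All 4 libraries are 1 batch, so the comparison is within it, and only the 2 Smad3+/+ libraries were labelled with the tracer, although VSMCs of all 4 held GFP UMIs.

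The result at 10 weeks depended on the filter on low counts. Without it, 19090 genes were tested and 4 of the 10 genes were called: Fos (log2 -1.53, adjusted p = 2.1e-06), Fosb (-1.96, adjusted p = 1.6e-11), Nr4a1 (-1.003, adjusted p = 0.011) and Nr4a2 (-1.25, adjusted p = 0.00069), where 0.267% of genes were called. Their fold changes were close to those of the filtered fit, and their standard errors were smaller (0.25 against 0.61 for Fos). In all other alternatives none of the 10 genes was called in VSMCs at 10 weeks. Without the filter Atf3 was called at 18 weeks (log2 0.58, adjusted p = 0.030, 0.702% of genes) and Fos, Fosb and Nr4a2 for the difference between the times (0.367% of genes). With the 4 libraries of 10 weeks fitted alone, Nr4a2 had an adjusted p of 0.28 by edgeR.

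At 18 weeks the VSMC fold changes ran from -0.35 (Egr1) to 0.59 (Atf3), with a median of -0.06. Fos lay at 1502 to 3089.6 CPM in the 5 Smad3+/+ libraries (median 2555) and at 437 to 3198 CPM in the 7 labelled Smad3SmKO (median 1688), a difference of -0.26 on the log2 scale (95% interval -1.07 to 0.54). The library labelled Smad3SmKO replicate 3 of batch 1 was the lowest of the 16 in Fos (437 CPM), Egr1 (137 CPM) and Nr4a1 (28.7 CPM). Atf3 read 163 to 718 CPM in Smad3+/+ and 111 to 629 CPM in Smad3SmKO libraries. Within batches 1, 2, 3 and 6, its difference was -1.06, 0.38, 1.59 and 1.64 on the log2 scale, and that of Fos was -1.58, 0.22, -0.09 and 0.56. Neither gene kept 1 direction over the 4 batches. Nr4a1, which is also known as a TGF-beta target that restrains the pathway, differed by -1.17, -0.19, 0.59 and 0.22 in the same batches and by -0.15 in the joint fit (95% interval -0.86 to 0.56), beside its -1.02 within batch 4 at 10 weeks.

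The change in the genotype difference from 10 to 18 weeks was above 0 in VSMCs for 9 of the 10 genes (median 0.70, all genes -0.00), and none passed the threshold, when 1 of 11852 genes did (0.00844%; 305 had an unadjusted p under 0.05). Fosb (1.86, 95% interval 0.35 to 3.38) and Nr4a2 (1.25, 0.41 to 2.09) had intervals above 0 before adjustment. Time after deletion and batch cannot be told apart in this comparison, since batch 4 holds all of the 10 week libraries and no others. In fibroblasts the genotype fold changes lay between -0.73 and 0.14 at 10 weeks and between -0.04 and 0.23 at 18 weeks, and Fos read 4342 and 4157 CPM in Smad3+/+ and 4175 and 4506 CPM in Smad3SmKO libraries at 10 weeks. In the other immediate early genes the 10 week VSMC median was -0.47 (6 of 42 above 0), and no gene of any list was called by genotype.

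**Figure D4:**
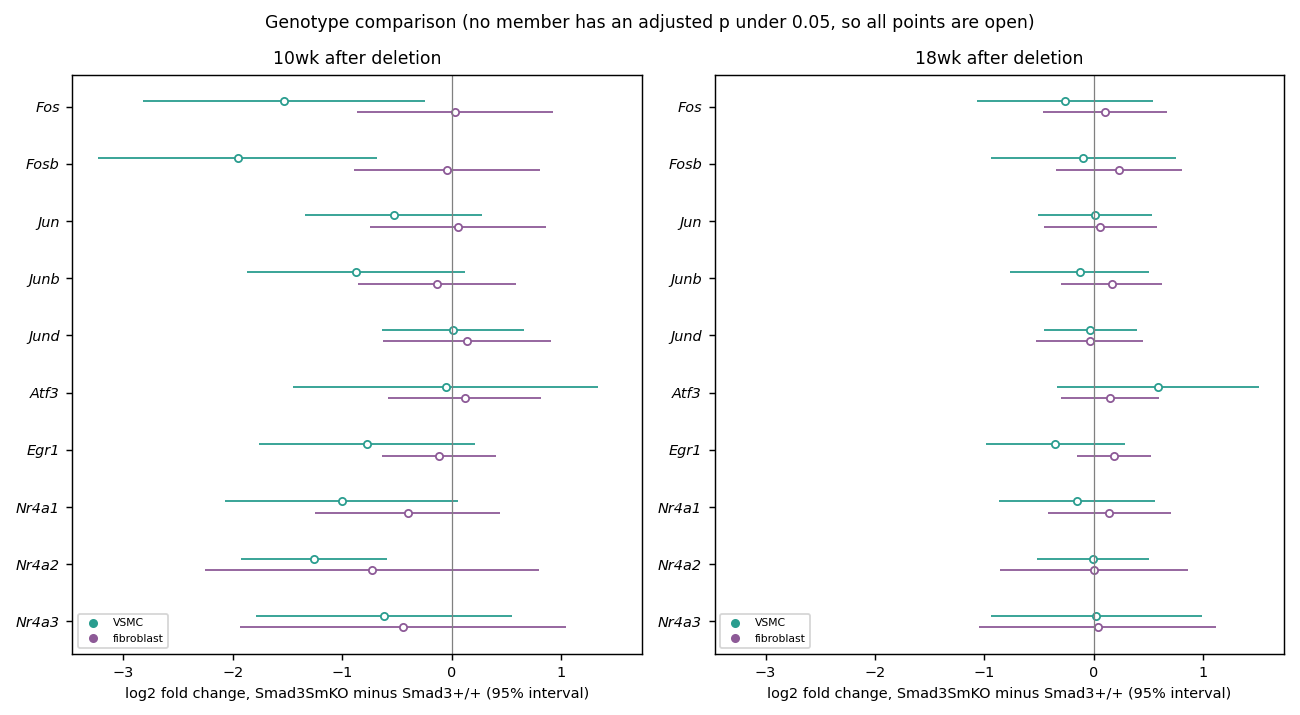
Log2 fold change of each gene between libraries labelled Smad3SmKO and Smad3+/+ (Smad3SmKO minus Smad3+/+) at 10 and 18 weeks in VSMCs and fibroblasts, with 95% intervals. No point passes the adjusted threshold. At 10 weeks the VSMC points of Fos, Fosb and Nr4a2 lie left of 0 with intervals that exclude 0 before adjustment, while every fibroblast interval includes 0.

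**Figure D5:**
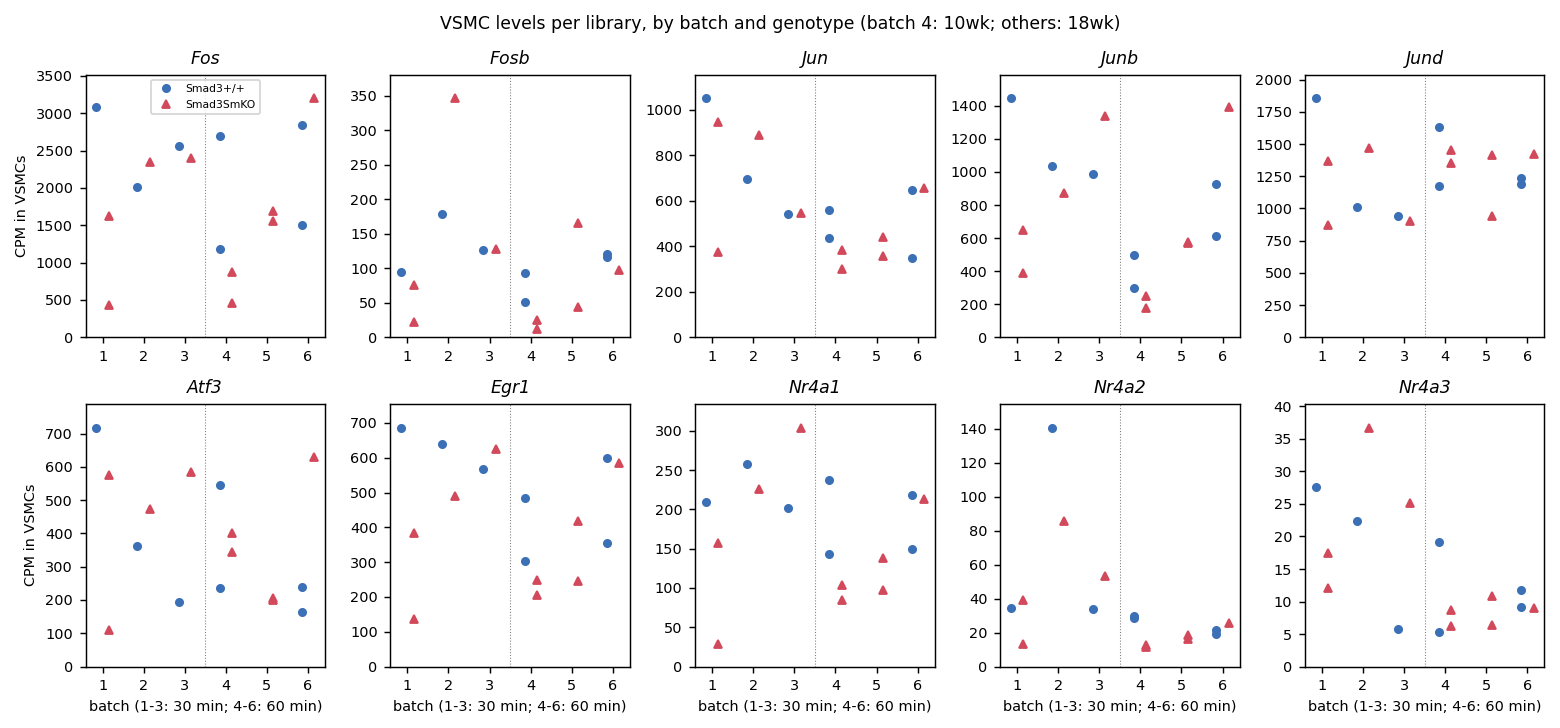
VSMC level (CPM) of each gene in every library by batch, with circles for Smad3+/+ and triangles for Smad3SmKO; batches 1 to 3 were digested for 30 min and 4 to 6 for 60 min, and batch 4 is 10 weeks. In batch 4 the triangles of Fos, Fosb, Egr1, Nr4a1 and Nr4a2 lie below both circles. Batch 5 holds Smad3SmKO libraries only.

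The members varied together from library to library in VSMCs. Over the 16 libraries the 45 pairs of log2 levels had a median Pearson correlation of 0.63 (from -0.07 to 0.94, 43 above 0), and 0.71 after each batch was centred (0.26 to 0.96, all 45 above 0). The closest pairs were Egr1 with Nr4a1 (0.94) and Fos with Egr1 (0.93), and the loosest was Fosb with Jund. Egr1 followed the mean of the members most closely (0.92) and Jund least (0.35). Each member is part of that mean, which raises these values, so they are not comparable with those of the non-members below. In fibroblasts the median was 0.61 and fell to 0.36 within batches, where 33 of the 45 stayed above 0. These values describe libraries that share batch, digestion time and depth, and carry no test. Among 11842 genes the 8 non-members whose VSMC level was most like the mean of the members over the 16 libraries were Zfp36 (0.90), Ppp1r15a (0.88), Arc (0.87), Tob1 (0.87), Ier3 (0.86), Gadd45b (0.86), Fam20a (0.85) and Gpsm1 (0.85). Within batches these correlations ran from 0.79 to 0.94.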

How the data were processed

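The deposited files are gene by cell matrices of counts, that is, raw UMI counts per gene and barcode. The authors made them from 10x 3′ v3 libraries against mm10 with Cell Ranger (version 6 in the submitters' notes, 4.0.0 in the matrix header), and Seurat 4 is named for their later steps. Barcodes with 600 to 6000 genes, 2000 to 50000 UMIs and under 25% mitochondrial UMIs were kept, which removes some doublets by the upper limits, and no doublet caller was run. VSMCs had at least 5 Myh11 UMIs and more Myh11 than Dcn, fibroblasts at least 5 Dcn UMIs and more Dcn than Myh11, Pecam1/Cdh5 cells at least 2 Pecam1 and Cdh5 UMIs together, and leukocytes at least 2 Ptprc and Tyrobp UMIs together. A cell that met several rules counted in each class. Counts were summed per library and class where at least 20 cells were present, which left out the leukocytes of Smad3SmKO replicate 7 of 18 weeks (13 cells), and VSMC sums held 281192 to 18903689 UMIs.

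Sums were tested with edgeR 4.0.16 in R 4.3.3 (TMM scaling, filterByExpr, quasi-likelihood test) with Benjamini-Hochberg adjustment over all genes tested and a threshold of 0.05. Terms were library and class for cell types, genotype and digestion time for digestion, and batch and genotype at each time for genotype. Alternatives used DESeq2 1.42.0, limma 3.58.1 and other scalings, filters and subsets of cells or libraries. Scripts were tested on simulated data. Matrices were read and summed with pandas 2.3.3 and scipy 1.17.1 under Python 3.11.15, and figures drawn with matplotlib 3.10.9. Promoters are those of RefSeq for GRCm38.p6.

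The members and lists were chosen with earlier results of these data known. All 10 members were named, with the counts of each list, the 3 genes of each list with the lowest p for digestion in VSMCs, and the 8 non-members most like the members. Each library is 1 mouse. The CPM of a low gene rests on few UMIs, and 4869 kept cells carried a barcode that was also deposited in another library.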

Additional observations from a re-analysis of the deposited data

Results flagged for a closer look

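In 7 of the 80 groups of 4 to 10 libraries examined, 1 library lay far from the others by Dixon's criterion, which chance gives in about 1 group in 20. The 7 groups mix both digestion times. Smad3SmKO replicate 6 of 18 weeks, the only Smad3SmKO library of batch 6, accounted for 5 of them. Its Atf3 was 874 CPM in Pecam1/Cdh5 cells (next library 375) and 532 CPM in fibroblasts (next 272). Its Junb was 3319 CPM in Pecam1/Cdh5 cells (next 1311) and 3616 CPM in fibroblasts (next 1565), and its Nr4a1 was 413 CPM in Pecam1/Cdh5 cells (next 200.3). Of the 469 Pecam1/Cdh5 cells of this library 282 were also counted as fibroblasts, so these 5 flags are not separate observations. Without this library Atf3 was still called for digestion in fibroblasts (log2 1.20, adjusted p = 0.039 by edgeR) and in Pecam1/Cdh5 cells (log2 1.28, adjusted p = 0.041).

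Nr4a2 stood apart in 2 Smad3+/+ libraries of 18 weeks. In VSMCs of replicate 3 it was 141 CPM, from 113 UMIs in 48 cells, with the next library at 34.3 CPM. In fibroblasts of replicate 4 it was 261 CPM, from 9245 UMIs in 2213 cells, with the next library at 61.1 CPM.

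The change with digestion differed between VSMCs and fibroblasts, by the test of that difference itself, for Atf3 (-1.97 on the log2 scale) and Nr4a2 (-3.05). Digestion time, batch and the tracer label went together in these libraries, and the difference was not fitted with batch as a random block. Both calls were lost when a sum had to hold at least 50 cells (adjusted p = 0.062 and 0.088 by edgeR).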

How the results depend on the processing

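Of 5808 member fold changes recomputed under alternatives, 5572 stayed on their side of the threshold, 83 lost the call, 144 gained it and 9 changed direction. Among the 5572, 364 changed sign without a call under either setting. The cause was not tested. In the 30 min libraries alone, Fos between VSMCs and fibroblasts was 0.0214 and Nr4a2 1.07, Fos between VSMCs and Pecam1/Cdh5 cells was 0.469 and Nr4a2 1.20, and Nr4a2 between VSMCs and leukocytes was 1.16. In the 60 min libraries alone Atf3 was -0.291 between VSMCs and fibroblasts and -0.790 between VSMCs and Pecam1/Cdh5 cells. Between Pecam1/Cdh5 cells and leukocytes Jund was 0.0244 on library totals, and Nr4a1 was -0.645 in cells that met 1 rule only.

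Counts of members called moved as follows. Counts over all genes moved with the settings too, as given in part here and below, so these are no result about the members alone. Between VSMCs and fibroblasts, 4 were lower (7 in all libraries) at 30 min, and the number higher (1) was 2 at 30 min and 0 at 60 min, without a low-count filter, with doubled marker minimums or with at least 50 cells. Between VSMCs and Pecam1/Cdh5 cells, the number lower (4) was 7 on library totals, 2 at 30 min and 8 at 60 min, and the number higher (0) was 3 at 30 min. Over all genes 7930 were called there, of which 47.7% were higher in VSMCs. On library totals 8085 were called, 32.1% of them higher, and at 30 min 5781 were called. Between VSMCs and leukocytes 1 was higher at 30 min. Between fibroblasts and Pecam1/Cdh5 cells, the number lower (0) was 2 on library totals, 1 with doubled minimums and 1 at 60 min, and the number higher (3) was 5 without the filter, 5 in cells of 1 rule and 1 at 30 min. Over all genes 4479 were called there, against 4750 on library totals, 6889 without the filter, 6887 in cells of 1 rule and 2725 at 30 min. Between fibroblasts and leukocytes 0 were higher at 30 min, and between Pecam1/Cdh5 cells and leukocytes 3 were lower (5) on library totals. For the latter pair 9534 genes were called on library totals (9046), of which 72.1% were higher in Pecam1/Cdh5 cells (55.3%).

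For digestion in VSMCs (1) the count was 4 without the filter and 2 with DESeq2, and 0 with doubled minimums, barcodes found in 1 library, at least 50 cells, either genotype alone, without batch 5 and with batch as a random block. In fibroblasts (1) it was 2 on library totals, without the filter and with all barcodes, 3 with DESeq2 and with the 10 week libraries, 5 in Smad3+/+ alone and without batch 5, and 0 in Smad3SmKO alone and with the random block. In Pecam1/Cdh5 cells (1) it was 4 without the filter, with DESeq2 and with doubled minimums, 6 in cells of 1 rule and in Smad3+/+ alone, 5 without batch 5, 3 with at least 50 cells and with the 10 week libraries, 2 with barcodes in 1 library, and 0 in Smad3SmKO alone and with the random block. In leukocytes (2) it was 1 with doubled minimums and with the random block, and 0 on library totals, in either genotype alone and without batch 5. For the difference between VSMCs and fibroblasts (2) it was 4 with DESeq2 and 0 with at least 50 cells. Without the filter the genotype counts in VSMCs were 4 at 10 weeks, 1 at 18 weeks and 3 for their difference.

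Leaving out 1 library at a time gave 0 to 2 members for digestion in VSMCs, 0 to 3 in fibroblasts, 0 to 3 in Pecam1/Cdh5 cells, 0 to 1 in leukocytes and 2 to 6 for the difference between VSMCs and fibroblasts (6 without Smad3SmKO replicate 7 of 18 weeks). Over all genes these fits called 140 to 436, 55 to 418, 148 to 457, 190 to 666 and 95 to 333, in the same order (333 without that replicate 7). The number higher in VSMCs than in fibroblasts was 0 to 1, and was 0 without Smad3+/+ replicate 1 or 3 or Smad3SmKO replicate 1, 2 or 4 of 18 weeks. No genotype call appeared when a library was left out. No paired analysis was possible because the labels carry no replicate numbers that would pair mice. The classes of 1 library were compared with library in the fit, and the genotypes with batch in the fit.

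Library totals without scaling factors moved the median of all genes for digestion to -0.13 in VSMCs, -0.20 in fibroblasts, -0.18 in Pecam1/Cdh5 cells and -0.22 in leukocytes, and the share of called genes that were higher from 54.4% to 27.6%, 66.3% to 16.6%, 84.0% to 43.2% and 77.7% to 39.6%. Between cell types they moved it to -0.19 for VSMCs and Pecam1/Cdh5 cells, 0.17 for VSMCs and leukocytes, 0.26 for fibroblasts and leukocytes and 0.38 for Pecam1/Cdh5 cells and leukocytes. The share higher moved there from 47.7% to 32.1%, 52.1% to 58.0%, 54.2% to 64.8% and 55.3% to 72.1%, and from 53.4% to 29.3% between fibroblasts and Pecam1/Cdh5 cells. Over all genes, the number called for digestion in VSMCs (364) ran from 17 in Smad3SmKO alone to 1041 without the filter. In fibroblasts (261) it ran from 10 in Smad3SmKO alone to 1223 with DESeq2. In Pecam1/Cdh5 cells (331) it ran from 1 in Smad3SmKO alone to 718 with DESeq2, and in leukocytes (638) from 73 in Smad3+/+ alone to 1653 without the filter. For the difference (222) it ran from 42 with at least 50 cells to 470 with DESeq2. For genotype in VSMCs it ran from 0 to 51 at 10 weeks (0), from 1 to 134 at 18 weeks (5) and from 0 to 70 for their difference (1).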
